A study of Galdieria sulphuraria with 9 samples.

Results

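Transcript levels of 2 genes were examined among the 6538 genes counted in the thermophilic red alga Galdieria sulphuraria: Gs32310, annotated as an RNA-binding protein, and Gs34230, annotated as an ATP-dependent RNA helicase. They were chosen because the study lists both as differing between heat and cold and because proteins of these classes act on RNA structure. The comparison of cold with heat, and each move into the cold, therefore chose them: their values there are a description, without a test. On the study's list Gs34230 shares its entry with the neighbouring genes Gs34210 and Gs34220. Tests were kept to contrasts other than that of the study's list. These were the difference between both cold samplings, between both hot samplings, and in size between both moves into the cold. Earlier results of these data were known at the choice, so these tests are not independent of it. Both genes passed the filter on low counts that left 6195 genes for testing.

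Wild-type strain 074W was kept without an organic carbon source, in lit and shaken batch cultures named A, B and C, each of which was carried through 4 samplings. Heat comprised H-42 (cultures B and C, after 2 weeks at 42 °C) and H-46 (A and C, 48 h at 46 °C), and cold comprised C-28.1 (A, B and C, 48 h at 28 °C directly after H-42) and C-28.2 (A and C, 48 h at 28 °C directly after H-46). Time runs H-42, C-28.1, H-46, C-28.2, so temperature, order and culture age are bound together in any comparison of samplings. The 9 libraries held 4389066 to 8989387 counts each.

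RNA-binding proteins and RNA helicases both attend to the fate of transcripts after they are made. A helicase spends ATP to open paired stretches of RNA or to strip proteins from it, in splicing, ribosome assembly, translation and decay, while RNA-binding proteins mark transcripts for processing, storage, translation or turnover. RNA pairs more tightly when it is cold, and some members of both classes are known to be cold-induced elsewhere, such as the DEAD-box helicase CsdA of Escherichia coli and glycine-rich RNA-binding proteins of the plant Arabidopsis. The names of Gs32310 and Gs34230 are product annotations given in the study. Neither name says which RNA the protein acts on, and the protein sequences were not used here.

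The RNA-binding protein gene Gs32310 was high in the cold and highest of all in the second cold sampling. Its level, in CPM (counts relative to library size, scaled by TMM factors), was 343.5 in culture B and 412.3 in culture C of H-42. In C-28.1 it was 547.0 in culture A, 791.8 in B and 729.5 in C. In H-46 it was 103.8 in culture A and 289.8 in C, and in C-28.2 it was 989.5 in A and 2356 in C. Every cold library lay above every hot one, a separation shown by 17.1% of the 6195 genes tested, and both C-28.2 libraries lay above all the others, as in 10.2% of genes. The ratio of the highest to the lowest library was 22.7.

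Over both cold samplings Gs32310 averaged 1083 ± 729 CPM in cold (SD, n = 5) and 287 ± 132 CPM in heat (SD, n = 4). In the fit of cold over heat the log2 fold change was 1.91 (standard error 0.472), a fold of 3.77, at percentile 98.2 of all genes tested. For comparison, 9.90% of all genes were called in this contrast. A call throughout required an adjusted p (Benjamini-Hochberg) under 0.01 together with a change of more than 2.5-fold. Since this contrast chose the gene, nothing is read from its place in that ranking. In bulk RNA, more transcript in each cell and more cells that carry it cannot be told apart.

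The RNA helicase gene Gs34230 was also high in the cold, but its peak was the first cold sampling. It stood at 65.44 CPM in culture B and 54.83 CPM in culture C of H-42. In C-28.1 it reached 144.0 CPM in A, 163.0 CPM in B and 191.6 CPM in C. It was at 73.84 CPM in culture A and 44.33 CPM in C of H-46, and at 90.46 CPM in A and 79.76 CPM in C of C-28.2. The cold libraries were again all above the hot ones, and the 3 libraries of C-28.1 stood above all the others, as in 13.0% of genes. The gap between C-28.2 and H-46 was narrow: culture A of H-46 was nearly as high as culture C of C-28.2. The highest library was 4.32 times the lowest.

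**Figure D1:**
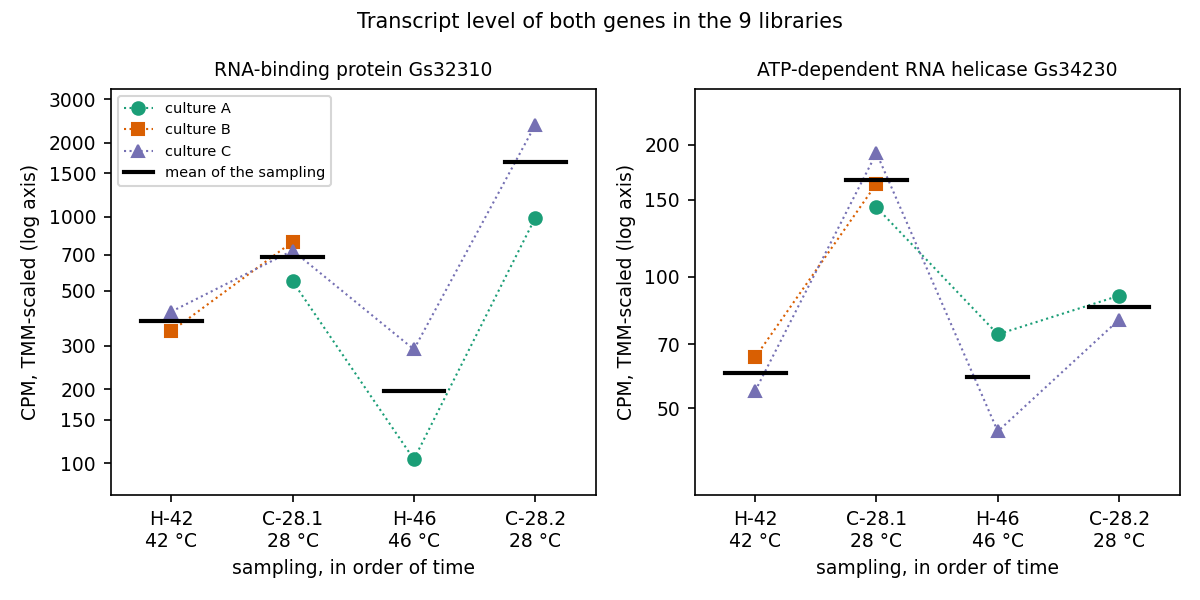
Level of the RNA-binding protein gene Gs32310 (left) and the RNA helicase gene Gs34230 (right) in the 9 libraries, in TMM-scaled CPM on a log axis, with the samplings in order of time, points and dotted lines by culture, and bars for the mean of each sampling. Gs32310 peaks at C-28.2 (989.5 and 2356 CPM) and Gs34230 at C-28.1 (144.0 to 191.6 CPM).

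Gs34230 averaged 134 ± 47.7 CPM in cold (SD, n = 5) and 59.6 ± 12.8 CPM in heat (SD, n = 4). The fitted log2 fold change was 1.17 (standard error 0.268), a fold of 2.24, which lies under the fold minimum of 2.5. From its percentile of 92.2 nothing is read, since this contrast chose the gene. Giving each sampling equal weight changed the fitted values little: cold over heat was 1.98 (standard error 0.333) for Gs32310 in a model with 4 conditions. In the same model it was 0.997 (standard error 0.176) for Gs34230.

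The order of the sampling means differed between both genes only in the cold. For Gs32310 it was C-28.2 over C-28.1 over H-42 over H-46, an order shared by 483 of the 6195 genes (7.80%). For Gs34230 it was C-28.1 over C-28.2 over H-42 over H-46, which 529 genes showed (8.54%). Neighbours in the order were not always apart: H-42 and H-46 overlapped for Gs34230, while for Gs32310 each step in the order separated the libraries. At 2 or 3 libraries a sampling such separation is common, since H-42 lay above H-46 in 17.4% of genes and C-28.2 above C-28.1 in 27.3%.

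At the first move into the cold, C-28.1 averaged 689 ± 127 CPM of Gs32310 (SD, n = 3), against 378 ± 48.6 CPM in H-42 (SD, n = 2). The log2 fold change was 0.87 (standard error 0.437), a fold of 1.82. At the second, C-28.2 averaged 1673 ± 967 CPM (SD, n = 2), against 197 ± 132 CPM in H-46 (SD, n = 2). That difference was 3.09 (standard error 0.506), a fold of 8.50. All genes together were called at a rate of 11.9% at the first move and 10.3% at the second. The second value rested in part on single libraries: it was 2.33 without culture C of C-28.2 and 4.01 without culture C of H-46.

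For Gs34230 the larger change came at the first move. C-28.1 averaged 166 ± 24.0 CPM (SD, n = 3), against 60.1 ± 7.50 CPM in H-42 (SD, n = 2), with a log2 fold change of 1.47 (standard error 0.243) and a fold of 2.76. C-28.2 averaged 85.1 ± 7.56 CPM (SD, n = 2), against 59.1 ± 20.9 CPM in H-46 (SD, n = 2), with a log2 fold change of 0.53 (standard error 0.258) and a fold of 1.44. Leaving out culture A of H-46 moved the second value to 0.963, and leaving out culture C of H-46 moved it to 0.208. How far the helicase gene stood above its hot level in the second cold sampling thus depended on which hot library was used.

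Following each culture through time showed the same shape. For Gs32310 the ratio of C-28.1 to H-42 was 2.30 in culture B and 1.77 in culture C. The ratio of C-28.2 to H-46 was 9.53 in culture A and 8.13 in culture C, close to each other although culture C was well above culture A at both temperatures. Between these moves, on warming to 46 °C, the ratio of H-46 to C-28.1 was 0.190 in A and 0.397 in C. In both cultures the level was lower after warming and, after the next cooling, above that of the earlier cold sampling.

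The helicase gene followed another course within cultures. Its ratio of C-28.1 to H-42 was 2.49 in culture B and 3.49 in culture C. On warming, H-46 over C-28.1 was 0.513 in A and 0.231 in C. On the second cooling, C-28.2 over H-46 was 1.23 in A and 1.80 in C, and both cultures stayed below their level of C-28.1.

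The contrast between both cold samplings, which is not that of the study's list, pointed in opposite directions. Gs32310 was higher in C-28.2 than in C-28.1, with a log2 difference of 1.28 (standard error 0.420, 95% interval 0.357 to 2.20) and a fold of 2.43. This did not pass the threshold (adjusted p = 0.0580, quasi-likelihood test of edgeR). It was higher in 2 of 2 cultures sampled at both times, by a ratio of 1.81 in culture A and 3.23 in C. The libraries did not overlap, as in 27.3% of genes, and the size depended on 1 library: without culture C of C-28.2 the difference was 0.521 (adjusted p = 0.532, edgeR), and without culture A of C-28.2 it was 1.78.

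Gs34230 was lower in C-28.2 than in C-28.1, with a log2 difference of -0.97 (standard error 0.239, 95% interval -1.49 to -0.442), a fold of 0.512. The adjusted p was 0.0250 by edgeR's quasi-likelihood test, so this difference too fell short of the threshold, both in p and in fold. The ratio of C-28.2 to C-28.1 was 0.628 in culture A and 0.416 in culture C. Every C-28.1 library lay above every C-28.2 library, as in 27.2% of genes. Leaving out any library kept the value between -1.06 and -0.852.

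Across all genes few calls were made between the cold samplings: edgeR called 1 of 6195 genes (0.0161%), with 2221 at an unadjusted p under 0.05, while DESeq2 called 145. With culture as a replicate block, which uses that the same cultures were sampled again, edgeR called 138 genes. In that fit the difference of Gs32310 was 1.24 with an adjusted p of 0.00765, past the limit on p but under the 2.5-fold minimum. That of Gs34230 was -0.966 with an adjusted p of 0.0163 under the block.

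**Figure D2:**
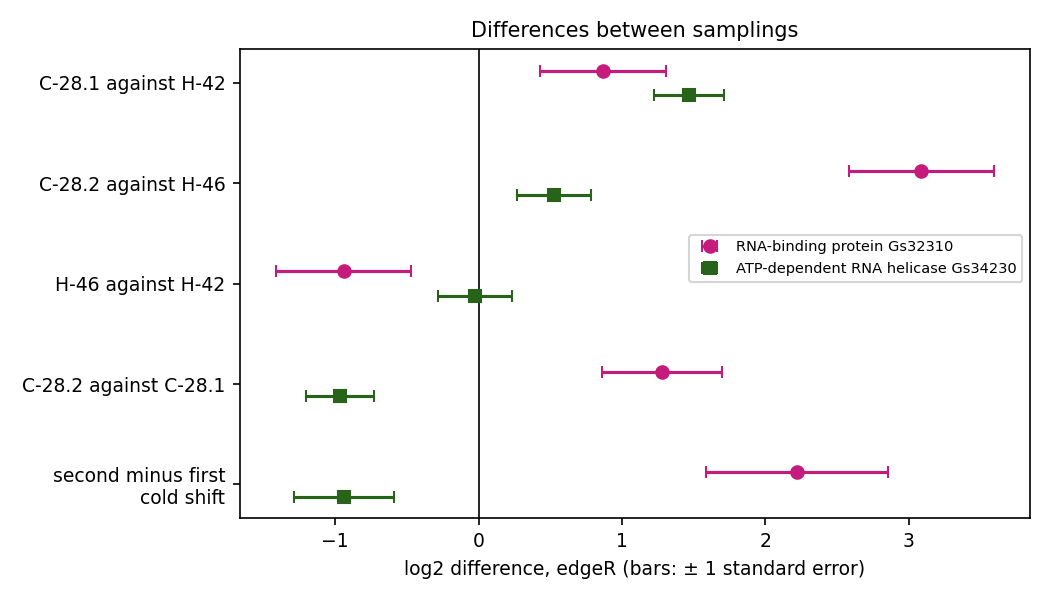
Fitted log2 differences of Gs32310 (circles) and Gs34230 (squares) between samplings, from edgeR's model with 4 conditions, with bars of 1 standard error. The cold shifts in the top rows chose the genes and were not tested. In the row for C-28.2 against C-28.1 the genes lie on opposite sides of 0, at 1.28 and -0.97.

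The difference between both moves into the cold had opposite signs as well. For Gs32310 the second move exceeded the first by 2.22 on the log2 scale (standard error 0.634, 95% interval 0.828 to 3.61), at percentile 99.7 of all genes, with an adjusted p of 0.0933 in edgeR's 4-condition model. For Gs34230 the second move was smaller than the first, by a log2 difference of -0.94 (standard error 0.349, 95% interval -1.71 to -0.175, adjusted p = 0.136 in the same edgeR model). With culture as a replicate block, edgeR gave 1.94 for Gs32310 (adjusted p = 0.0287) and -0.905 for Gs34230 (adjusted p = 0.126). DESeq2 gave adjusted p of 0.0114 and 0.0845 in the same order, so neither gene passed under these settings. By edgeR, 0 of the 6195 genes passed here (0%), with 1541 at an unadjusted p under 0.05, 182 called by DESeq2 and 3 with culture as a block. The values of both genes moved with single libraries left out. Without culture C of H-46, edgeR gave 3.14 for Gs32310 and -1.26 for Gs34230. Without culture C of C-28.2 the value of Gs32310 was 1.46, and without culture A of H-46 that of Gs34230 was -0.511. Where a sampling is left with 1 library, that library is assumed to vary like the others.

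Between the hot samplings, Gs32310 had 103.8 and 289.8 CPM in H-46, against 343.5 and 412.3 CPM in H-42. The log2 difference was -0.94 (standard error 0.472, 95% interval -1.98 to 0.0952), which did not pass (adjusted p = 0.579, edgeR's quasi-likelihood test). Culture C, the only culture with both hot libraries, gave a ratio of 0.703. Without culture C of H-46 the difference was -1.86 (adjusted p = 0.0372) and without culture A it was -0.398, so its size hung on the spread between both H-46 libraries.

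Gs34230 had 73.84 and 44.33 CPM in H-46, against 65.44 and 54.83 CPM in H-42. Its log2 difference was -0.03 (standard error 0.257, 95% interval -0.590 to 0.540, adjusted p = 0.981 from edgeR), and the sign turned with library totals in place of TMM (0.120). Over all genes this contrast gave 3 calls (0.0484%), with 529 genes at an unadjusted p under 0.05 and 23 called by DESeq2.

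Depth did not limit the values of either gene in comparison with the spread between cultures. Gs32310 rested on 516 to 11965 counts per library, a counting error of 0.91% to 4.4%. Its share of the library was 0.222% in culture C of C-28.2 (95% exact Clopper-Pearson interval 0.218% to 0.226%) and 0.0118% in culture A of H-46 (0.0108% to 0.0128%). Gs34230 rested on 216 to 1359 counts, a counting error of 2.7% to 6.8%. Such intervals cover counting error only. The pooled standard deviation of log2 CPM within samplings was 0.644 for Gs32310 and 0.284 for Gs34230, so cultures differed far more than counting did.

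The counts of both genes were also set against each other within each library, as a ratio that no scaling factor touches. There were 5.25 counts of Gs32310 per count of Gs34230 in culture B and 7.52 in culture C of H-42. In C-28.1 the ratio was 3.80 in A, 4.86 in B and 3.81 in C. In H-46 it was 1.41 in A and 6.54 in C, and in C-28.2 it was 10.9 in A and 29.5 in C. The ratio was highest in both libraries of the second cold sampling, while the first cold sampling lay below H-42. Transcript lengths enter this ratio, so it compares libraries, not the abundance of one gene with the other. Over the 9 libraries the log2 CPM of both genes correlated at Pearson's r = 0.375 and Spearman's rho = 0.600, a description across libraries that share cultures and temperatures, and 1877 of 5929 genes compared were more like Gs32310 than the helicase gene was.

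The genes whose course was most like that of Gs32310, by Pearson correlation of log2 CPM over the 9 libraries among 5929 genes with at least 10 counts in each, were Gs48320 (0.992) and Gs00280 (0.988), which have no product name in the sources used here. For Gs34230 they were Gs55920 (0.992) and Gs05650 (0.991), likewise unnamed, and the fifth was a flavodoxin family protein, Gs41930 (0.986). Flavodoxins are small electron carriers. These are the top of a ranking over 9 libraries from 4 samplings and are given without a test.

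Other genes of RNA binding, unwinding and decay were taken from product names, in 4 lists of 26 genes that hold both genes described here. The names came from the study's lists of alternatively spliced, differentially spliced and differentially expressed genes, with DNA helicases left out. They are thus not the alga's full set of such genes. Of the 24 others, 3 were called higher in cold than in heat and 0 lower, while 21 were not called. Their median log2 fold change was -0.09, against -0.01 for all genes tested, of which 5.42% were called higher and 4.47% lower. All 3 that were called are among the 6 listed genes that are also on the study's own list of genes that differ between heat and cold. That list was chosen on samples of this experiment (8 in the study, 9 libraries here), so these calls are not independent evidence. The other 3 of these 6 were not called and lay below 0, at -0.35 for an RNA-binding S1 domain-containing protein (Gs05570), -0.26 for a poly(A) binding protein (Gs29950) and -0.12 for the exosome component MTR3 (Gs10080). Of the 18 listed genes outside that list, 0 were called by edgeR (8 at an unadjusted p under 0.05) and 0 by DESeq2, with a median of -0.11 and a range of -0.92 to 0.95. Over all genes, 3105 of 6195 (50.1%) were at an unadjusted p under 0.05 in this contrast, the background for the unadjusted counts of each list. This split was made after the values were seen.

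**Figure D3:**
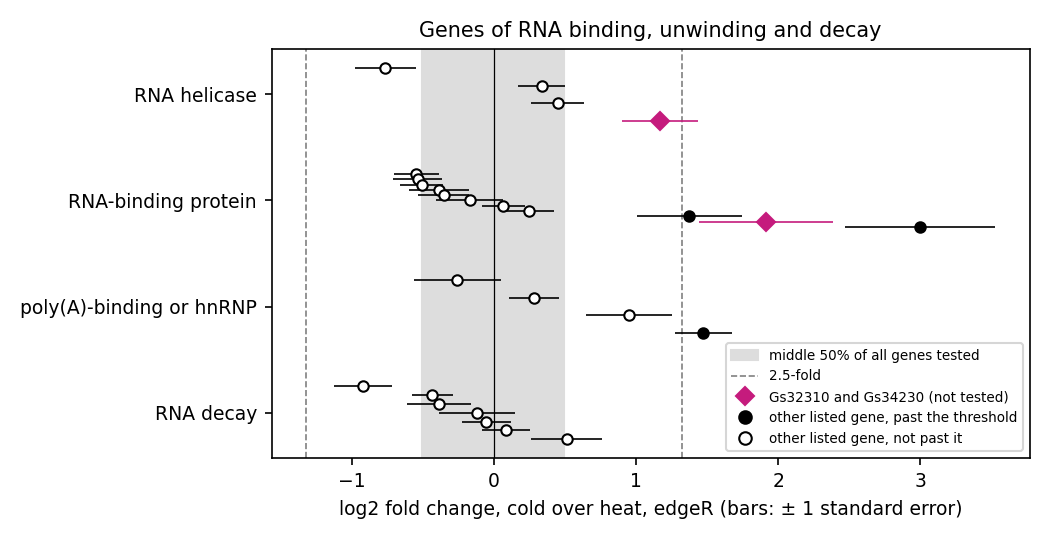
Log2 fold change of cold over heat (edgeR, bars of 1 standard error) for the listed genes, in rows by list, with Gs32310 and Gs34230 as diamonds, called genes filled and others open. The grey band spans the middle 50% of all genes tested and the dashed lines mark 2.5-fold. Only 3 circles are filled, all to the right, and most of the rest lie within or near the band.

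Among the other listed helicases, 0 of 3 were called by edgeR (2 at an unadjusted p under 0.05) and 0 by DESeq2. The ATP-dependent RNA helicase Gs39470 had a log2 fold change of 0.45 and the ATP-dependent RNA helicase Gs42480 of 0.34. The helicase Gs37000 was at -0.76, with an adjusted p of 0.0131 from edgeR. The value of Gs34230 itself, 1.17, lay above all of these. It was chosen from the study's list of genes that differ in this contrast and they were not, so nothing is read from that. Over the 9 libraries Gs37000 ran nearly opposite to Gs32310 (r = -0.956, rank 5903 of 5929 genes), while its r with Gs34230 was -0.428. Gs39470 had an r of 0.810 with Gs34230 (rank 870 of 5929 genes) and of 0.423 with Gs32310. For Gs42480 these were 0.599 and 0.658.

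Of the 10 other RNA-binding protein genes, 2 were called higher and 0 lower, with a median of -0.26 and a range of -0.55 to 3.00. Both were annotated as glycine-rich RNA binding proteins, a class of small proteins that are cold-induced in some plants. Isoform 2 (Gs13830) had 404.3 and 408.4 CPM in H-42, and 1506, 2711 and 2710 CPM in C-28.1. It had 85.91 and 97.89 CPM in H-46, and 1032 and 2004 CPM in C-28.2. The cold libraries were all far above the hot ones, with a log2 fold change of 3.00 (standard error 0.528, 7.99-fold, adjusted p = 7.61e-04 in edgeR). Like Gs32310 it was lower in H-46 than in H-42 (log2 difference -2.14, adjusted p = 0.0462, not past the threshold), but unlike Gs32310 its highest libraries were in the first cold sampling.

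Isoform 1 (Gs37390) had 963.0 and 1016 CPM in H-42, and 1383, 1969 and 1826 CPM in C-28.1. It had 303.0 and 415.8 CPM in H-46, and 1255 and 2311 CPM in C-28.2. In cold over heat its log2 fold change reached 1.37 (standard error 0.368, 2.59-fold, adjusted p = 0.00978 in edgeR), just past both limits. The call was lost with library totals in place of TMM (1.30, under the fold minimum), with a filter of 10 counts in every library (adjusted p = 0.0105), and without each of 8 of the 9 libraries, where the adjusted p ran between 0.0110 and 0.0367. Of all listed genes it was the most like Gs32310 over the libraries (r = 0.896, rank 200 of 5929 genes), followed by Gs13830 (r = 0.829, rank 395). Both are, like Gs32310, on the study's list of genes that differ between heat and cold, so likeness over these libraries is partly built in. Culture C of C-28.2 was the highest library of Gs37390, as for Gs32310.

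**Figure D4:**
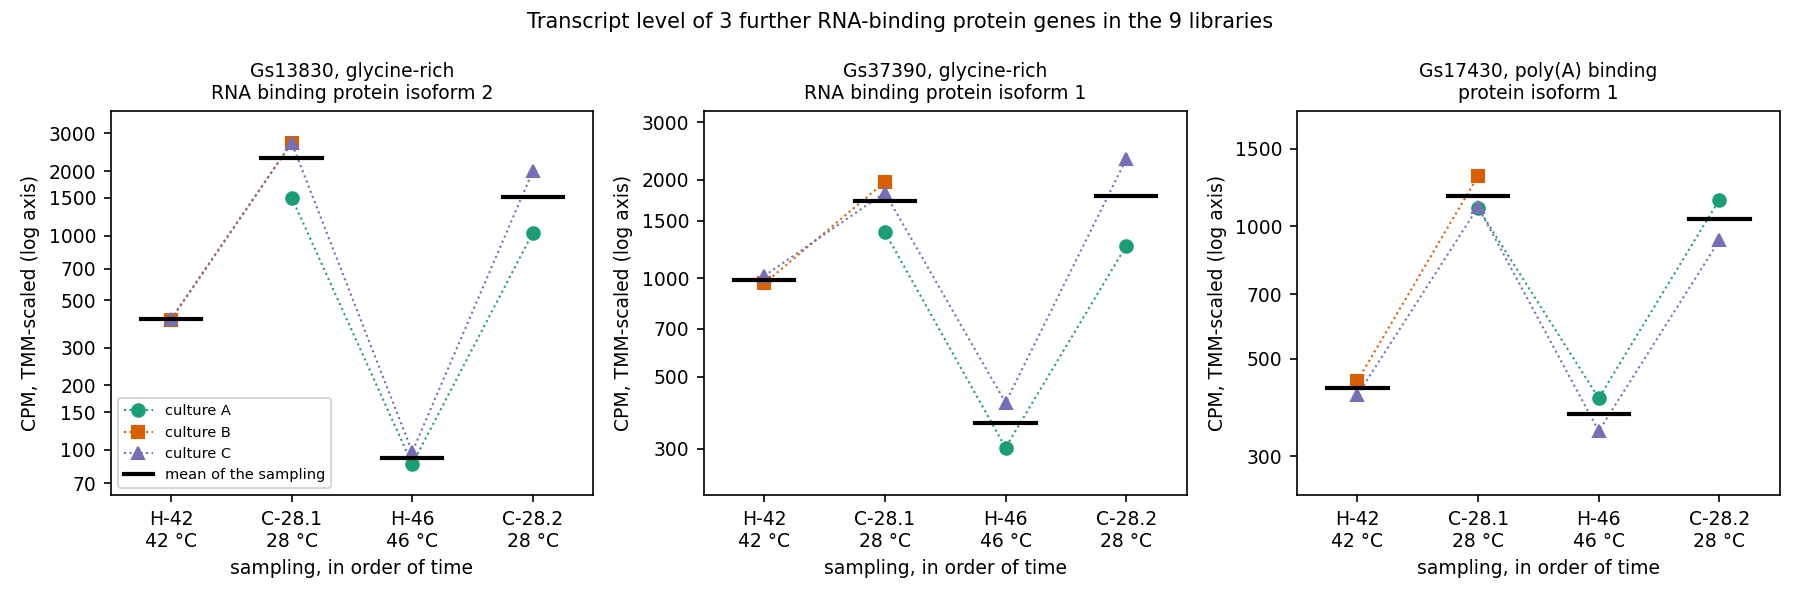
Levels of the 3 other called genes of the lists in the 9 libraries, drawn as for Gs32310 and Gs34230, in TMM-scaled CPM on log axes. Gs13830 lies at 85.91 and 97.89 CPM in H-46, under its 404.3 and 408.4 CPM in H-42, whereas Gs17430 takes much the same level in both hot samplings.

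Poly(A)-binding proteins coat the tails of messenger RNAs and link them to translation. Of 4 such genes (hnRNP A1/A3 included), 1 was called higher, with a median of 0.62. This was poly(A) binding protein isoform 1 (Gs17430), with 445.2 and 413.6 CPM in H-42, and 1098, 1301 and 1105 CPM in C-28.1. It had 406.6 and 342.3 CPM in H-46, and 1149 and 928.8 CPM in C-28.2. The log2 fold change was 1.47 (standard error 0.200, 2.78-fold, adjusted p = 1.49e-04 in edgeR), nearly the same at the first move (1.44) and the second (1.47). A poly(A) binding and translation initiation factor gene, Gs47930, was not called (0.95, adjusted p = 0.0226), yet of the listed genes its course was the most like that of Gs34230 (r = 0.962, rank 80 of 5929 genes). It had 397.3 and 317.3 CPM in C-28.2, against 594.7, 851.3 and 797.4 CPM in C-28.1.

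Of 7 RNA decay genes, which encode exosome components, poly(A) nuclease subunits and exoribonucleases, 0 passed the threshold in edgeR (2 at an unadjusted p under 0.05) and 0 in DESeq2, and their median was -0.12. The lowest value was that of exoribonuclease R (Gs44820), an enzyme that digests structured RNA and is cold-induced in Escherichia coli. It had 44.61 and 48.93 CPM in H-42, and 21.91, 25.31 and 19.75 CPM in C-28.1. It had 56.94 and 52.95 CPM in H-46, and 28.83 and 38.60 CPM in C-28.2. The log2 fold change was -0.92 (standard error 0.205, 0.529-fold, adjusted p = 0.00340 in edgeR), past the limit on p but under the fold minimum. Its course ran opposite to that of Gs34230 (r = -0.922), and less so to that of Gs32310 (r = -0.548).

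Because the strand setting of the counts is not given in the sources used here, and the library kit named in the labels does not mark strand, reads of neighbouring or overlapping genes could enter a gene's count. The 4 nearest genes of Gs32310 were not called in cold against heat. The translation initiation factor eIF-2B epsilon subunit gene (Gs32290) had a cold over heat log2 fold change of 0.29, the unnamed gene Gs32300 of -0.52, the 26S proteasome regulatory subunit N12 gene (Gs32320) of -0.32 and the unnamed gene Gs32330 of -0.13, all with adjusted p between 0.221 and 0.637 in edgeR. Gs32320, which lies next to it, was however also higher in C-28.2 than in C-28.1, with 158.0 and 276.1 CPM in C-28.2, against 87.18, 90.09 and 72.95 CPM in C-28.1. That difference was 1.38 (adjusted p = 0.0224 in edgeR, not past the threshold). Whether reads of these genes are shared was not tested.

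Beside Gs34230, 2 genes on 1 side were called higher in cold. The 40S ribosomal protein S6e gene (Gs34220) had a log2 fold change of 1.57 (standard error 0.250, adjusted p = 3.85e-04, edgeR). That of the mitochondrial adenine nucleotide translocator gene (Gs34210) was 1.71 (standard error 0.217, adjusted p = 9.67e-05, edgeR). On the other side Gs34240 was at -0.19 and Gs34250 at 0.44, both not called. The study's list gives these 3 genes, Gs34210, Gs34220 and Gs34230, 1 shared entry, so that the helicase gene's place on it does not come from its own reads alone.

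The counts of the 3 genes were therefore set apart. Gs34230 took 9.51% of the 60120 counts on the 3 genes over all libraries. In C-28.1 its share was 11.5%, 10.6% and 14.6% in cultures A, B and C, and in H-42 it was 10.7% in B and 9.64% in C. In C-28.2 it was 4.57% in A and 5.08% in C, against 16.9% in A and 9.16% in C of H-46. The share was lowest in the second cold sampling, with exact 95% intervals of 4.19% to 4.98% in A and 4.61% to 5.58% in C, which cover counting error only. The libraries of H-46 differed from each other by more than such intervals, and the difference in share between samplings was not tested.

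The ribosomal protein gene Gs34220 had 1765 and 1423 CPM in C-28.2, against 1003, 1270 and 1018 CPM in C-28.1. Its log2 difference between them was 0.54 (adjusted p = 0.107 in edgeR), opposite in sign to the -0.97 of Gs34230. In the second cold sampling the helicase gene and the ribosomal protein gene thus lay on opposite sides of their C-28.1 levels, a contrast between genes that was not tested itself.

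**Figure D5:**
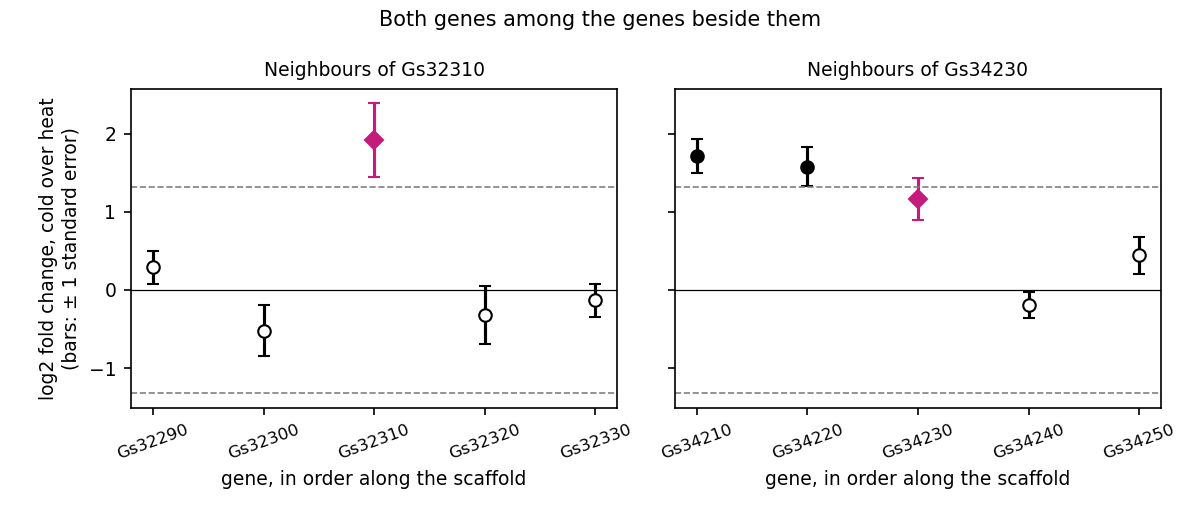
Log2 fold change of cold over heat (edgeR, bars of 1 standard error) for Gs32310 (left) and Gs34230 (right), drawn as diamonds, and the 2 genes on each side of them in gene order, with called genes filled and dashed lines at 2.5-fold. No neighbour of Gs32310 is called, while Gs34210 and Gs34220 are, at 1.71 and 1.57.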

How the data were processed

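RNA was sequenced in paired-end mode from 9 libraries of 4 samplings. Reads were counted on 6538 genes, and the authors deposited these counts as whole numbers, not normalized. In all, 79 genes had 0 counts in every library. The read counter, annotation, strand setting and genome build are not given in the sources used here, and the handling of reads shared by near-identical genes is unknown. Of the genes, 6510 carry the number of a RefSeq locus tag, used only for the order of neighbours. Product names came from the study's supplementary tables.

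Differences were tested in R 4.3.3 with the quasi-likelihood test of edgeR 4.0.16, which draws on limma 3.58.1, after TMM scaling, on the 6195 genes kept by filterByExpr, cold against heat without further terms, and with 4 conditions for samplings. A call needed an adjusted p (Benjamini-Hochberg) under 0.01 and more than a 2.5-fold change. For the difference between the cold shifts no minimum fold was used. The study gives the 2.5-fold minimum for genes and this false discovery rate for splicing. Standard errors are the log2 fold change over the square root of the F statistic. The script was also run on simulated data without culture effects, and the outcome is not given here. CPM use TMM-scaled totals, and correlations use log2 CPM with 1 count added.

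Both genes and all lists were chosen with earlier results of these data known. Named genes are both genes described, the 2 genes on each side of each, the listed genes and the 5 genes most correlated with each, of which unnamed ones were limited to 2 per gene. Other listed genes singled out were chosen after their values were seen.

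Culture letters pair libraries, since the same cultures were resampled. Deviations from the sampling means correlated at 0.0342 to 0.553 in libraries of the same culture. In libraries of different cultures they correlated at -0.553 to 0.332. Where a sampling has only a pair of libraries, their deviations mirror each other, so these ranges do not show by themselves that pairing matters. No pair of libraries within a sampling was alike within counting noise (chi-square per gene 12.6 to 74.2). Cultures were grown separately, so the spread between libraries is biological as well as technical. The assignment of libraries to lanes is not given in the sources used here, so no sequencing batch was tested. Alternatives were DESeq2 1.42.0, RLE factors, library totals, other count filters, culture as a block, a 4-condition fit, no minimum fold and leaving out each library.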

Additional observations from a re-analysis of the deposited data

Results flagged for a closer look

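Among 70 groups of libraries tested (cold or heat, for 34 genes and the library totals), 6 held 1 library far from the rest. Such a rule flags about 5% of groups by chance only where a group's libraries come from 1 distribution. Each group joined different samplings and the genes share libraries, so that rate cannot be applied here. For Gs32310, culture C of C-28.2 stood at 2356 CPM, with the other cold libraries between 547.0 and 989.5 CPM, and its gap to the nearest of them was 0.755 of the range of the group.

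Culture A of H-46 was the highest hot library of Gs32300, the unnamed neighbour of Gs32310 (195.4 CPM, others 78.60 to 96.46), and of the RNA-binding protein gene Gs29140 (96.98 CPM, others 60.01 to 62.8). Culture A of C-28.2 was the highest cold library of Gs34250 (71.36 CPM, others 37.67 to 44.51). Culture C of C-28.2 was the highest cold library of the poly(A) nuclease subunit 3 gene Gs05490 (52.59 CPM, others 39.83 to 42.71). Culture C of H-46 was the lowest hot library of Gs47930 (217.7 CPM, others 331.0 to 340.8).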

How the results depend on the processing

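Values of Gs32310 and Gs34230 kept their direction under every alternative, apart from that of Gs34230 between the hot samplings, which lay between -0.456 and 0.295 with single libraries left out and at 0.120 with library totals in place of TMM. Leaving out single libraries, Gs32310 ranged over 1.41 to 2.14 for cold against heat, 0.753 to 1.01 for the first cold shift, 2.33 to 4.01 for the second, -1.86 to -0.398 for H-46 against H-42, 0.521 to 1.78 for C-28.2 against C-28.1 and 1.46 to 3.14 for the difference of the shifts. Gs34230 ranged over 1.01 to 1.31, 1.35 to 1.61, 0.208 to 0.963, -0.456 to 0.295, -1.06 to -0.852 and -1.26 to -0.511 in the same order. DESeq2 gave an adjusted p of 0.00214 for Gs34230 in C-28.2 against C-28.1 (-0.973), still under the fold minimum.

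Counts over all genes moved more. In cold against heat 1617 genes passed without a fold minimum (613 with it), and library totals in place of TMM gave 45.5% of calls as higher in cold, where TMM gave 54.8%, and shifted the median of all genes to -0.10. Calls for H-46 against H-42 were 23 by DESeq2, 1 when each library had to hold 10 counts, and 0 to 8 with single libraries left out. Those for C-28.2 against C-28.1 were 145 by DESeq2, 44 with library totals, 32 without a filter, 138 with culture as a replicate block and 0 to 130 with single libraries left out. The difference of the shifts gave 182 calls by DESeq2, 3 with the replicate block and 0 to 713 with single libraries left out. In cold against heat the replicate block gave 599 calls, 572 of them among the 613 without it, and it changed no call of a listed gene in that contrast. The list of RNA-binding proteins had 1 call in place of 2 with library totals and with at least 10 counts in every library, and 1 to 2 with single libraries left out. The RNA decay list had 1 without a fold minimum (Gs44820). The causes were not tested. Depth limits genes near 10 counts, none of which is named.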
